A study of Mus musculus with 6 samples.

Results

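Junctions between pancreatic acinar cells were followed through 9 genes, 2 connexins (Gjb1, Gjb2), the adhesion gene Cdh1, 4 tight junction membrane proteins (Ocln, Cldn3, Cldn7, Cldn10) and 2 cytoplasmic tight junction proteins (Tjp1, Cgn). They and the gene lists set beside them below were chosen by name, with earlier results of these data known. All 9 were found among the 12016 genes of the deposited table. RNA of whole pancreas was sequenced from 3 male wild-type mice (C57Bl6/N in the labels' protocol, C56Bl6/N in their strain field) and 3 male OCaR1-/- mice, written OCar1-/- in the genotype field. All were 3 weeks old, untreated, and given the same strain label. OCaR1 is another name for the protein that Tmem63a encodes, a channel-like membrane protein; the labels do not make this link, which is background, and do not describe the null allele further. The comparison asks how pancreatic RNA differs when OCaR1 is missing.

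Acinar cells secrete digestive enzymes into a narrow lumen and are tied together around it by junctions. Gap junctions are clusters of channels, each built from connexin subunits of both neighbouring cells, through which ions, calcium-releasing messengers and small metabolites pass, so that an acinus responds to a secretagogue as a unit. Tight junctions seal the lumen: claudins form the barrier and its ion pores, occludin sits beside them, and scaffold proteins tie both to actin, while E-cadherin holds the cell membranes together beneath.

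All levels are the authors' group values in FPKM (fragments per kilobase, normalised for library size; it is a scale per length on which genes can be compared). The table holds 1 such value per genotype, so neither the values of single mice nor their spread, nor whether the genotypes overlapped, can be given. Depth is unknown for the same reason. A gene is called, and said to rise or fall, where the q-value of the Cuffdiff test in the authors' deposited table is under 0.05. Log2 fold changes are knockout over wild type. The targeted gene Tmem63a stood at 4.91 FPKM in the knockout against 18.3 FPKM in wild type, a fall of 3.73-fold (q = 0.00152, from the authors' deposited table). Digestive enzyme genes, the defining products of acinar cells, made up 53.0% of the summed FPKM in the knockout and 57.7% in wild type. The sum does not speak for each gene: of 26 such genes 5 were called higher and 3 lower, 16 had a log2 fold change above 0, and the median was 0.09. Of all tested genes, 4.20% were called higher and 3.35% lower. The 9 genes themselves are not confined to acinar cells, since duct, islet and other epithelial cells share several of them.

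The start region of Gjb2 is shown first because Gjb2 was the only member called. Beside it, 2 start regions of Gjb1 are shown because Gjb1 is its partner in acinar gap junctions and was not called. The RefSeq windows (build GRCm38.p6) run from 250 bases before to 50 bases after an annotated start, 5′ to 3′ on the strand of the gene. Capitals mark matches on either strand to any of the 7 motifs spelled out with their counts below. The Gjb2 window lies at chr14:57104653-57104952 on the minus strand. The Gjb1 windows lie on the plus strand, the first of 4 annotated at chrX:101376126-101376425, where the deposited interval starts, and the last of 4 at chrX:101383482-101383781, which holds the most matches.
Gjb2: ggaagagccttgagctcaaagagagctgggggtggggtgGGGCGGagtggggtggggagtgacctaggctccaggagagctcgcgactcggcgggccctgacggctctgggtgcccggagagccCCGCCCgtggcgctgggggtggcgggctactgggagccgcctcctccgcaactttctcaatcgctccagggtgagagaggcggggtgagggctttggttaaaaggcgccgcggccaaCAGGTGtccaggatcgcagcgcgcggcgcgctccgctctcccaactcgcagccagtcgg
Gjb1, first start: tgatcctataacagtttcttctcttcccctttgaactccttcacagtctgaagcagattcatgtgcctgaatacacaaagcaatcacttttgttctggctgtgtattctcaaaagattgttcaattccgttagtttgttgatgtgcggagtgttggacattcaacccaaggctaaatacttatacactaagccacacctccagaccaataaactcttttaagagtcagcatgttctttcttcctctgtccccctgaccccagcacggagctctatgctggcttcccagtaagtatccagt
Gjb1, last start: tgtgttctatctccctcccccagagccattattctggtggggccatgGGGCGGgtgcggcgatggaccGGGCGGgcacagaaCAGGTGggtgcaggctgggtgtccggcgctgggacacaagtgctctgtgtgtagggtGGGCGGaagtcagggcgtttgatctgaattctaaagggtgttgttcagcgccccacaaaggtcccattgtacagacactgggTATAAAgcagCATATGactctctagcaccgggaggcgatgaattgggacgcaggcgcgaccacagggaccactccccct

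The Gjb2 window is rich in G and C (70.0%) with 27 CG pairs, whereas the first Gjb1 window has 43.3% and 3 pairs. In Gjb2 the capitals are 2 GC boxes (GGGCGG), at 211 and 126 bases before the start, and 1 copy of the E-box CACCTG (read on the other strand), at 9 bases before it. CACCTG is a sequence that the acinar factor PTF1A can bind. The first Gjb1 window held none of the motifs. The last one held 3 GC boxes, 1 CACCTG, 1 TATAAA (the TATA box) and 1 CATATG, an E-box that BHLHA15 can bind. At the start of the deposited interval, 8 of the members matched a window. CACCTG was found in 3 of them (Gjb2, Ocln and Cldn3), against 20.3% of 32544 promoter windows of the same length, and the GC box in 5 of them, against 35.9%. None of the 8 windows held TTTCCCA (bound by RBPJL), AAGGTCA (bound by NR5A2), GATAAG (bound by GATA4), CATATG or TATAAA, against 8.03%, 4.71%, 7.32%, 3.87% and 13.6% of all windows. Windows at other annotated starts were left out of these counts. Among those, window 3 of Gjb1 held AAGGTCA, and window 2 of Cldn7 held TTTCCCA and CACCTG. No 2 of the motifs overlapped in the windows shown. A match describes letters and not binding, and which of its 4 starts Gjb1 used in these samples was not measured.

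Gjb2 fell by 2.13-fold in the knockout, while no other member was called. Gjb2 encodes connexin 26, and Gjb1 encodes connexin 32, the main connexin of rodent acinar cells. Gjb2 (ENSMUSG00000046352, protein-coding, chr14:57098600-57104702, minus strand, GRCm38) had 16.0 FPKM in the knockout against 34.0 FPKM in wild type. Its log2 fold change of -1.09 had p = 5e-05, the smallest in the authors' deposited table and shared by 394 genes, and q = 0.00152. Of all 11478 tested genes, 7.54% were called, 3.35% lower and 4.20% higher; 1 of the 9 members was called, lower. Gjb2 ranked 84th from the lowest of the 11441 fold changes. Among 2423 genes with a mean level of 10 to 40 FPKM, 19 had a log2 fold change at or below that of Gjb2, itself included.

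Gjb1 (ENSMUSG00000047797, chrX:101376378-101385629, plus strand) had 35.6 FPKM in the knockout against 39.7 FPKM in wild type. The log2 fold change was -0.16 (q = 0.441, from the authors' deposited table), so the knockout value was 89.6% of that in wild type. Gjb1 thus stood at 1.17 times the level of Gjb2 in wild type and at 2.23 times in the knockout. Whether the changes of Gjb1 and Gjb2 differ from each other was not tested, since no values of single mice are in the table. The summed level of the pair was 51.6 FPKM in the knockout against 73.8 FPKM in wild type, and the share of Gjb2 in it was 31.0% and 46.1%. The pair made up 87.0% of the summed level of the 6 connexins of the table in the knockout and 91.6% in wild type.

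**Figure D1:**
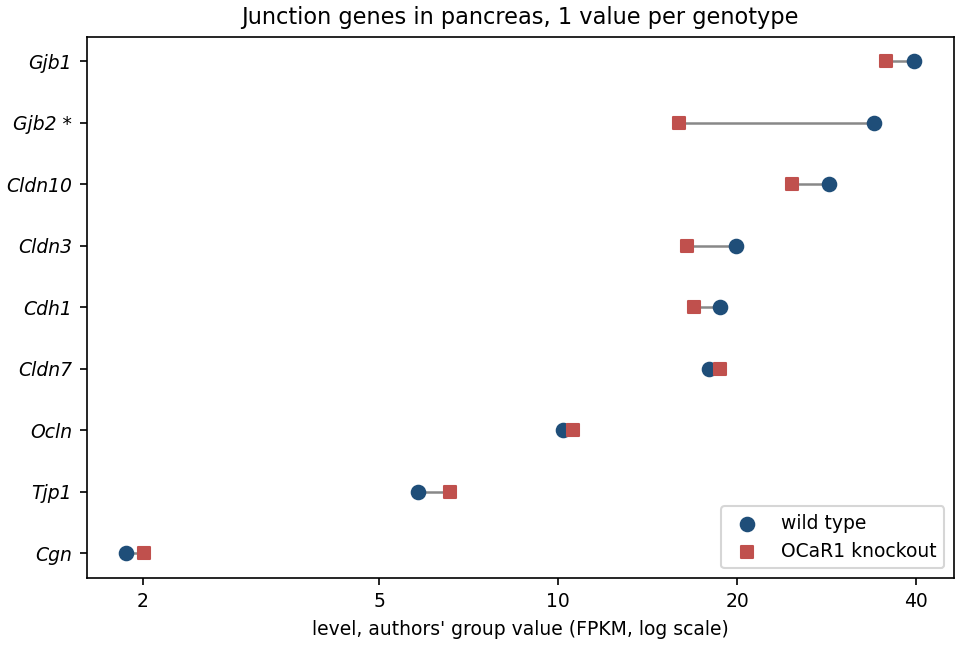
Level of each of the 9 junction genes on a log axis in FPKM, 1 authors' group value per genotype without error (circle, wild type; square, OCaR1 knockout; an asterisk marks a gene called at q under 0.05). Gjb2 moves from 34.0 FPKM in wild type to 16.0 FPKM in the knockout, while the symbols of the other genes lie close together.

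Reads of the 2 connexins could be told apart by sequence. Of 2357 different stretches of 50 bases (the read length) in the annotated Gjb2 transcript, 0 occurred in transcripts of another gene on either strand in GENCODE M21, and for Gjb1 the count was 0 of 1655. The longest run shared by their coding parts is 15 bases, shown here because it is shorter than a read; it starts at coding base 526 of Gjb1 and 529 of Gjb2, counted from the start codon. For the neighbouring claudin genes Cldn3 and Cldn4, described below, the longest shared coding run is 35 bases, from coding base 211 of Cldn3 and 214 of Cldn4.
Gjb1 and Gjb2: acagtggactgcttc
Cldn3 and Cldn4: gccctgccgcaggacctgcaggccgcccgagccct
No such 50-base stretch of Cdh1, Ocln, Tjp1, Cldn3, Cldn7 or Cldn10 occurred in another gene either. In Cgn, 17.2% of the stretches did, so its value is the least certain in that respect.

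The 3 claudins that were members stood lower or near their wild-type level, and none was called. Cldn3 (chr5, plus strand), a barrier-forming claudin, had 16.5 FPKM in the knockout against 19.9 FPKM in wild type, a log2 fold change of -0.28 (p = 0.0125, q = 0.119, from the authors' deposited table). With Gjb2 it was 1 of 2 members with an unadjusted p under 0.05, which 17.5% of all tested genes had. The deposited interval of Cldn3 runs on over the antisense gene Wbscr25, which overlaps Cldn3 by 40 bases in GENCODE M21, and whether strand was used in counting is not given in the sources used here. Intervals of Tjp1 and Cldn10 each hold 1 small gene in an intron, Gm44794 of 411 bases and n-R5s51 of 123 bases, which share 0 exon bases with them. Cldn10, a claudin whose splice forms from different starts form pores for anions or for cations, had 24.8 FPKM in the knockout against 28.5 FPKM in wild type (log2 fold change -0.20, q = 0.344, from the authors' deposited table). The gene value does not separate these forms. Cldn7, found along the sides of many epithelial cells, had 18.7 FPKM in the knockout against 17.9 FPKM in wild type (log2 fold change 0.06, q = 0.947, from the authors' deposited table).

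The adhesion gene and the other tight junction members were not called either. Cdh1 (chr8:106603351-106670246), which encodes E-cadherin, had 16.9 FPKM in the knockout against 18.7 FPKM in wild type (log2 fold change -0.14, q = 0.523, from the authors' deposited table). Ocln, the occludin gene (chr13:100496507-100552718), had 10.6 FPKM in the knockout against 10.2 FPKM in wild type (log2 fold change 0.06, q = 0.966, the same table). Tjp1, whose product ZO-1 is the scaffold that binds claudins and occludin to actin, had 6.58 FPKM in the knockout against 5.80 FPKM in wild type (log2 fold change 0.18, q = 0.801, from the authors' deposited table). Cgn encodes cingulin, which links ZO-1 to myosin. It had 2.01 FPKM in the knockout against 1.87 FPKM in wild type (log2 fold change 0.10, q = 0.823, from the authors' deposited table). The knockout values of Ocln, Tjp1, Cgn and Cldn7 were thus the higher ones, but each became the lower one when levels were rescaled without the digestive enzymes. Each stayed the higher one when the median of all tested genes was subtracted instead. Their log2 fold changes were then 0.09 (Ocln), 0.21 (Tjp1), 0.13 (Cgn) and 0.10 (Cldn7).

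The order of levels changed through Gjb2 and among Cldn3, Cdh1 and Cldn7. In wild type the order from the highest was Gjb1, Gjb2, Cldn10, Cldn3, Cdh1, Cldn7, Ocln, Tjp1 and Cgn. In the knockout Gjb2 had passed from place 2 to place 6, just under Cldn3 (16.5 FPKM) and Cdh1 (16.9 FPKM), and Cldn7 from place 6 to place 3. Cdh1, at place 4, then stood above Cldn3, at place 5. Without values of single mice it cannot be said which neighbours in either order differ beyond their spread. Gjb1 lay within the top 7.03% of all tested genes by wild-type level and Cgn within the top 79.1%, so the members span most of the range of the table.

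The 8 members that were not called had log2 fold changes from -0.28 to 0.18, 4 on either side of 0, with a median of -0.04. The median of all 9 was -0.14, and that of all tested genes was -0.03. At the level of most members the test called few small changes. Among the 2423 genes at 10 to 40 FPKM, a range that held 7 members, 8.17% were called, the smallest called change was 0.29 on the log2 scale and the median called change 0.54. Of the changes not called there, 95% were smaller than 0.54 as well. The members that missed the threshold are therefore not shown to be equal between genotypes.

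**Figure D2:**
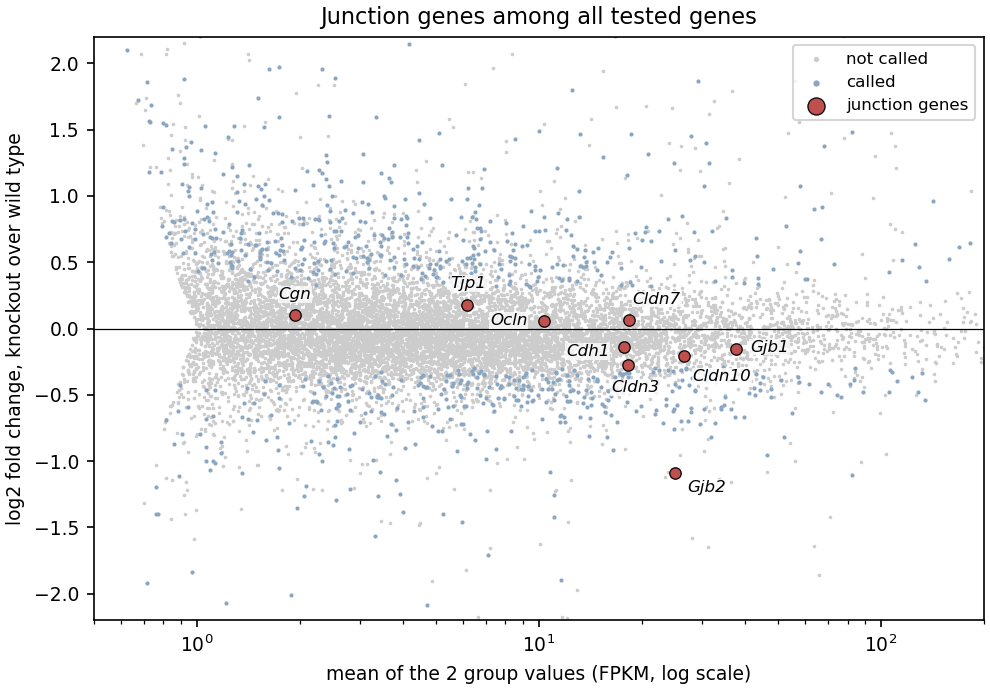
Log2 fold change (knockout over wild type) against the mean of both group values in FPKM on a log axis for 11246 of 11441 tested genes (grey, not called; blue, called at q under 0.05), with the 9 junction genes as large red points. The other 195 genes lie outside the axes. Gjb2 lies at -1.09, below the other 8 members, which lie between -0.28 and 0.18.

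Other junction genes of the table were described from lists of connexins, claudins, tight junction, adherens junction and desmosome proteins, 61 genes beside the 9 members. Of all 70, 1 was called lower (Gjb2) and 2 higher, or 4.29%, against the 7.54% of all tested genes. No other of the 70 had a fold change as large as that of Gjb2, up or down. Short lists hold few calls at such a share, so the counts per list below are no result about a junction class.

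Of 4 other connexins, Cuffdiff called 0, against 7.54% of all tested genes, and 1 had an unadjusted p under 0.05, against 17.5%. This was Gja1, connexin 43, the connexin of many stromal and vascular cells, with 3.47 FPKM in the knockout against 2.76 FPKM in wild type (q = 0.0863, from the authors' deposited table). The median of this list was 0.18. All 4 together had 7.72 FPKM in the knockout against 6.73 FPKM in wild type, far under the pair of Gjb1 and Gjb2.

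Of the 8 other claudins in the table, 1 was called higher and none lower, against 4.20% and 3.35% of all tested genes. Cldn4, a claudin of many tight epithelia, rose from 0.872 to 1.40 FPKM (1.61-fold, log2 fold change 0.69, q = 0.0177, from the authors' deposited table). Every gene of the table exceeds 1 FPKM in at least 1 group, and Cldn4 does so in the knockout alone. It is thus listed only through the group in which it is high, and the count of 1 gives no direction for claudins of low level. With at least 5 FPKM the count was 0. It lies 39.3 kb from Cldn3 on chromosome 5, and the ratio of Cldn3 to Cldn4 was 11.7 in the knockout and 22.9 in wild type. The list median was -0.01. The row listed as Cldn25 carries an identifier that the reference names Cldnd1, and it was kept among the 8. The 3 member claudins held 65.9% of the summed level of all 11 genes listed as claudins in the knockout and 67.4% in wild type. That sum includes the Cldn25 row, whose FPKM value was 7.63 for wild type and 9.43 for the knockout. Both shares are therefore lower than they would be without this row, and the lower share in the knockout depends on counting it. No direction is drawn from the shares.

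Of 30 other tight junction genes, Cuffdiff called 0, and 3 had an unadjusted p under 0.05, against 7.54% and 17.5% of all tested genes. The list median was -0.08. The smallest p belonged to F11r, the adhesion receptor JAM-A, at 33.7 FPKM in the knockout against 23.3 FPKM in wild type (log2 fold change 0.53, q = 0.0570, from the authors' deposited table). F11r lies on the same chromosome as the targeted gene, 9.48 Mb from it. Of 13 adherens junction genes, with a median of 0.05, Cuffdiff called 0, and 1 had an unadjusted p under 0.05, beside the same shares. That one was Vcl, which encodes vinculin, an actin linker, at 3.21 FPKM in the knockout against 2.40 FPKM in wild type (q = 0.142, from the authors' deposited table). Of 6 desmosome genes, with a median of -0.09, 1 was called higher and none lower, against 4.20% and 3.35% of all tested genes. Perp, a membrane protein of desmosomes, rose from 18.9 to 23.6 FPKM (1.25-fold, q = 0.0293, from the authors' deposited table).

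**Figure D3:**
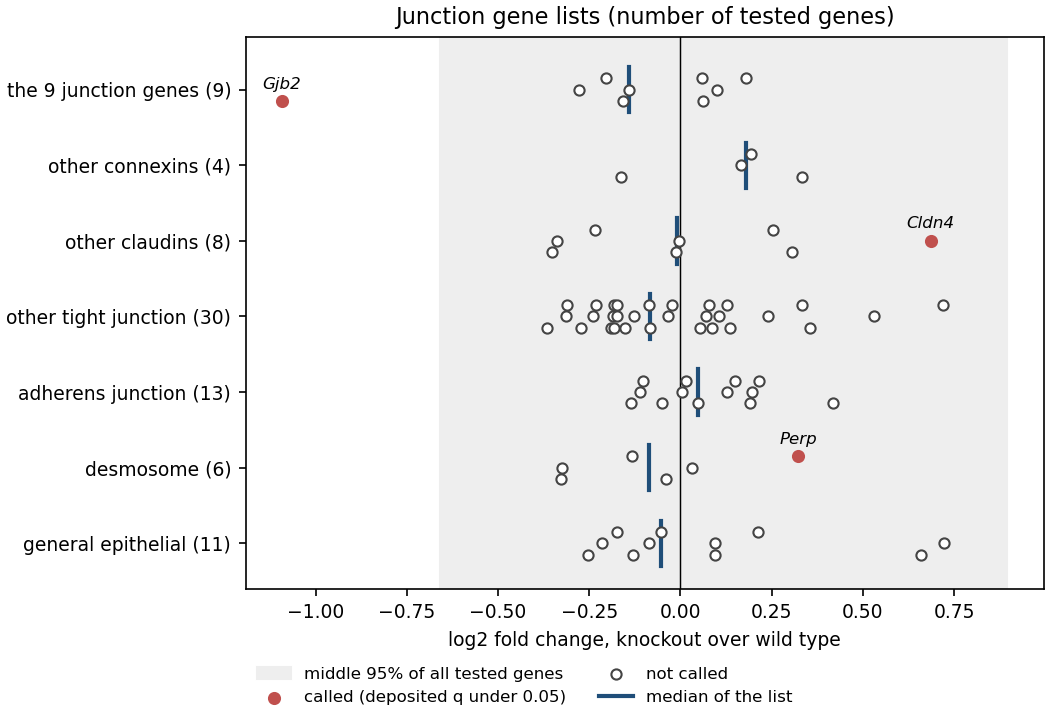
Log2 fold change (knockout over wild type) of each tested gene in 7 lists, with the number of genes in brackets (filled, called at q under 0.05; open, not called; bar, list median; grey band, middle 95% of all tested genes, from -0.66 to 0.90). The called genes are Gjb2 at -1.09, Cldn4 at 0.69 and Perp at 0.32.

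Of 11 general epithelial genes Cuffdiff called 0, where 7.54% of all tested genes were called. A list this short would hold few calls at that share, so the 0 is no result about these genes. An unadjusted p under 0.05 was found for 5 of the 11, against 17.5% of all tested genes, and the list median was -0.05. The smallest p was that of Elf3, an epithelial transcription factor, at 4.95 FPKM in the knockout against 3.13 FPKM in wild type (unadjusted p = 0.0097, not called, from the authors' deposited table). Of 4 repressors of Cdh1 and mesenchymal genes, 2 rose, where 4.20% of all tested genes were called higher. These 2 were the filament gene Vim (46.5 to 69.7 FPKM) and the matrix gene Fn1 (14.5 to 23.9 FPKM). The other two, the repressor genes Zeb1 and Zeb2, were not called and are named here after their values were seen.

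Of 5 acinar factors, 3 fell and none rose, where 3.35% of all tested genes were called lower and 4.20% higher. Ptf1a, the central acinar factor, fell from 40.9 to 27.2 FPKM (log2 fold change -0.59), Gata4 by 0.54 and Nr5a2 by 0.35 on the log2 scale. Bhlha15 had 64.3 FPKM in the knockout against 68.6 FPKM in wild type (q = 0.753, from the authors' deposited table). Connexin 32 in mouse acinar cells is known to depend on Bhlha15, but a link between Bhlha15 and Gjb1 in these samples was not tested. Rbpjl had 159 and 153 FPKM in the same order (q = 0.935, from the authors' deposited table). The deposited intervals of Rbpjl, Elf3 and Vcl are each shared with another gene of the table, so their values may hold reads of both. The log2 fold change of Gjb2, -1.09, lay outside the range of the 5 acinar factors, -0.59 to 0.05; the difference was not tested.

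Markers of other cells moved in the same comparison, in which 4.20% of all tested genes were called higher and 3.35% lower. All 11 islet genes, 9 of 10 macrophage genes, 6 of 7 fat cell genes, 5 of 10 endothelial genes, 4 of 8 stellate and fibroblast genes and 1 of 7 duct genes (Sox9, 2.61 to 3.86 FPKM) were called higher and none lower, and 5 of 6 smooth muscle genes were called lower and none higher. The summed FPKM was 4121 and 2568 for islet, 151 and 79.9 for macrophage, 194 and 87.2 for fat cell, 113 and 87.8 for endothelial, 418 and 326 for stellate, 239 and 219 for duct and 27.6 and 64.1 for smooth muscle genes, knockout first. None of these marker genes was listed at 0. Some of the called macrophage, fat cell and smooth muscle genes exceed 1 FPKM only in the group in which they are high. Such genes are listed only through that group, so the counts of these lists give no direction for markers of low level. In RNA of whole pancreas, fewer cells of a type and less RNA per cell cannot be told apart, and the part of these shifts in the level of Gjb2, Cldn4 or Perp was not tested.

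**Figure D4:**
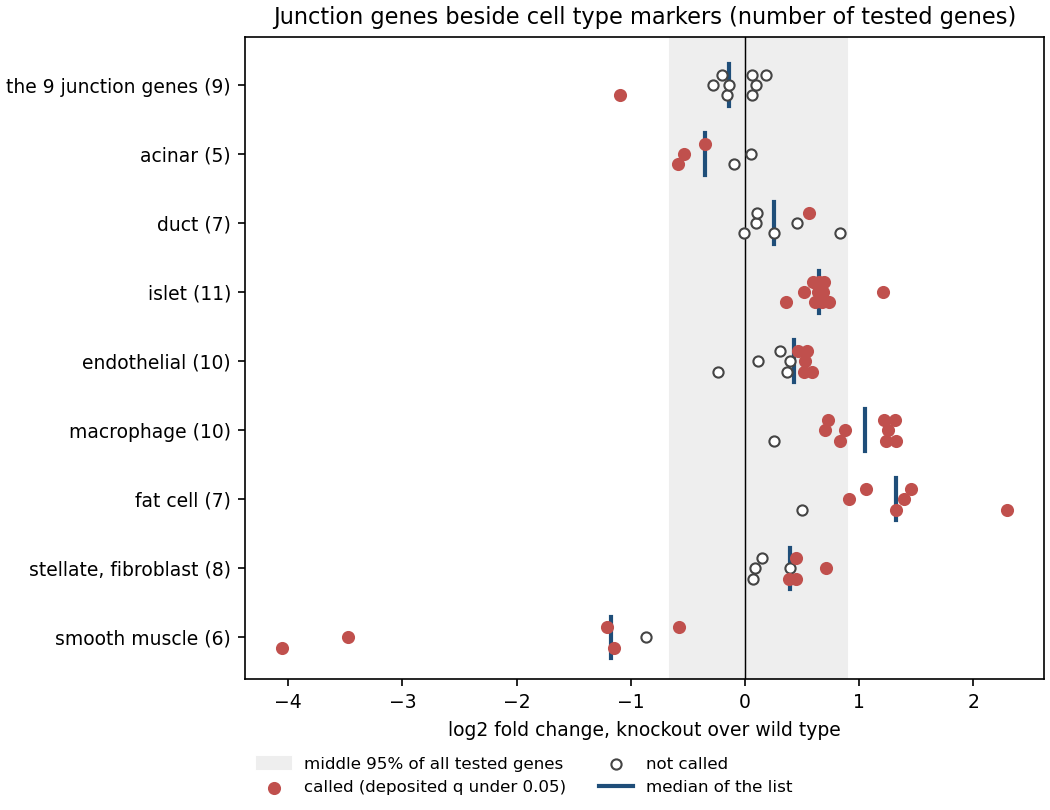
Log2 fold change (knockout over wild type) of the 9 junction genes beside markers of 8 cell types, with the number of tested genes in brackets (filled, called at q under 0.05; open, not called; bar, list median; grey band, middle 95% of all tested genes). The junction genes have a median of -0.14, the acinar factors of -0.35, and the islet and macrophage genes of 0.65 and 1.05.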

How the data were processed

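Pancreatic RNA was sequenced from 3 wild-type and 3 OCaR1 knockout mice. Per the labels' protocols, RNA integrity numbers were 8.20 to 9.10, 2.5 µg of RNA was poly(A)-selected, and single reads of 50 bases were made. STAR 2.5.1b, Cufflinks 2.2.1, Cuffdiff and build GRCm38 were used, per the submitters' processing notes. The annotation release, strand use, multi-mapping and Cuffdiff settings were not given in the sources used. The authors deposited 1 FPKM value per genotype and gene, with the p-value and q-value of their Cuffdiff test; per the file headers the knockout is the first group. Every gene of the table exceeds 1 FPKM in at least 1 group. Columns of single samples that went unused numbered 0.

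Fold changes were computed from the deposited FPKM values with no pseudocount (Python 3.11.15, pandas 2.3.3), because the deposited fold change column holds error entries. A value under 0.01 FPKM counted as 0, and 37 tested genes then had no fold change. Counts of calls leave out the 538 untested genes. The functions for adjustment and fold change were tested on simulated data. Members and lists were chosen with earlier results of these data known. Genes named beside the members are the called genes of each list or, where there were none, the gene with the smallest p, with up to 6 a list. The text departs from this rule: called digestive enzymes and called islet, macrophage, fat cell, endothelial, stellate and smooth muscle markers are given as counts without names, and the uncalled Bhlha15, Rbpjl, Zeb1 and Zeb2 were named after their values were seen. The promoter motifs were chosen after the called acinar factors were known. Intervals were shifted to start at 1; 0 of the 9 members share theirs with another gene of the table. Sequences come from RefSeq (GRCm38.p6) and GENCODE M21, of the same build. No test of differential expression was added, and alternatives covered the q threshold, adjustment, abundance, pseudocount, scaling and shared intervals.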

Additional observations from a re-analysis of the deposited data

How the results depend on the processing

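The call of Gjb2 alone among the 9 members was the same with a q threshold of 0.1 or 0.01, after renewed Benjamini-Hochberg adjustment of the p-values over all tested genes, with at least 5 FPKM, and without shared intervals. These settings could hardly have changed it, so they add little. The next member by Cuffdiff q-value was Cldn3, at 0.119. Gjb2 stood above 5 FPKM in both groups, and 0 of the 9 share an interval. Renewed adjustment called 867 genes of the whole table in place of 866. Rescaling both groups to the summed FPKM without the digestive enzymes shifted every log2 fold change by -0.20, the median of all tested genes from -0.03 to -0.23 and that of the members from -0.14 to -0.34. This shift leaves the order of all fold changes as it was, but Ocln (-0.14), Tjp1 (-0.017), Cldn7 (-0.14) and Cgn (-0.10) changed sign. Subtracting the median of all tested genes instead changed the sign of no member and gave a member median of -0.11. The counts of other lists changed by few genes. At a q threshold of 0.1, 1 other connexin and 2 other tight junction genes were called in place of 0. At 0.01, 0 other claudins and 0 desmosome genes were called in place of 1 each, and 4 digestive enzymes in place of 8. With at least 5 FPKM, 0 other claudins were called, and the median of that list went from -0.01 to -0.23. Rescaling without the digestive enzymes took the median of other connexins from 0.18 to -0.02 and of adherens junction genes from 0.05 to -0.15. The ratio of Gjb1 to Gjb2 moved little with a pseudocount of 1 FPKM. No paired analysis was possible because the table holds 1 value per genotype, and leaving out single replicates was not run for the same reason. Depth per library is unknown, so no interval or detection limit could be set.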
